A study of Homo sapiens with 10 samples.

Results

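The 8 genes followed here belong to the p53 growth arrest response and were read in cells of the human monocytic line U937 after an Fc gamma receptor had been cross-linked. The genes were CDKN1A, GADD45A, GADD45B, BTG1, BTG2, MDM2, PPM1D and SESN1. They were read through every probe set of the array, a set of short oligonucleotides against 1 transcript, whose only gene symbol in the platform annotation was 1 of these 8. That gave 7 genes with 1 probe set each, 7 probe sets of 8793. BTG2 had no such probe set in the annotation used and is not analysed here. All 7 passed the filter on low signal, as did 7708 probe sets in all.

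All cells had been differentiated with IFN gamma, the controls included. The 10 arrays formed 5 groups of 2: control with no receptor cross-linked and no time listed, CD32 cross-linked for 2 h, CD32 for 6 h, CD64 for 2 h and CD64 for 6 h. CD32 is the low-affinity and CD64 the high-affinity Fc gamma receptor of monocytes, which bind the constant part of IgG. A label of 1 CD32 2 h array read CD332, and that array was grouped by its title. Within each cross-linked group 1 array was called a duplicate, and separate cultures are not mentioned. The p-values therefore cover the spread between these arrays alone, and that spread may be technical. The same 2 control arrays entered all 4 comparisons with control. The comparisons asked how the genes changed after each receptor was cross-linked, whether the receptors differed at matched times, and whether the genes moved between 2 h and 6 h.

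The transcription factor p53 answers DNA damage and other stress by raising genes that stop the cell cycle. CDKN1A encodes p21, an inhibitor of cyclin-dependent kinases, and GADD45A and GADD45B encode stress sensors that bind the kinase MAP3K4 and feed p38 and JNK signalling. BTG1 and BTG2 are antiproliferative adaptors of the CCR4-NOT deadenylase, and SESN1 restrains the growth kinase complex mTORC1. MDM2, a ubiquitin ligase for p53, and PPM1D, a phosphatase of p53 and its kinases, close the loop as feedback inhibitors. All 8 also have inputs other than p53, such as SP1, KLF, SMAD, STAT and stress kinase pathways for CDKN1A and NF-kappaB for GADD45B. U937 is known to lack functional p53.

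The promoters of the 4 genes that were called changed somewhere are shown. The classical p53 elements of CDKN1A lie far upstream of its start site, while SP1 boxes lie near that site. Each run is the 250 bases before the annotated start, from RefSeq on GRCh38.p14, printed 5′ to 3′ on the strand of the gene, with position -1 next to the start. Capitals mark matches, on either strand, to the motifs searched: GGGCGG for the SP1 box, CCAAT for the box of that name, TATAAA for the TATA box, CACGTG for the E-box, TGACGTCA for the CRE, TGANTCA for the AP-1 site, TTCNNNGAA for the STAT GAS site, GCGNGGGCG for the EGR1 site, and the consensus decamers of p53 and NF-kappaB.

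CDKN1A, chr6:36678464-36678713, plus strand: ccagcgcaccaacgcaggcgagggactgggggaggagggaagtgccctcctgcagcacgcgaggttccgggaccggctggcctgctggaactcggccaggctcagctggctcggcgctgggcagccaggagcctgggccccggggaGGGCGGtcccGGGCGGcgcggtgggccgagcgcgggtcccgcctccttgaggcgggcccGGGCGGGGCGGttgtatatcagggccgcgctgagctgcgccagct

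PPM1D, chr17:60599943-60600192, plus strand: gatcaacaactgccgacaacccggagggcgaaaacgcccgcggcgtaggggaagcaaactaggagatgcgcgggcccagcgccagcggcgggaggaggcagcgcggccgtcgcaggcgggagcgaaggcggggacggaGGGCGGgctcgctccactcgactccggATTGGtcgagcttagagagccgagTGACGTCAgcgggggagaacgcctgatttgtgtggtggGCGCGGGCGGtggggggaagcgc

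GADD45B, chr19:2475877-2476126, plus strand: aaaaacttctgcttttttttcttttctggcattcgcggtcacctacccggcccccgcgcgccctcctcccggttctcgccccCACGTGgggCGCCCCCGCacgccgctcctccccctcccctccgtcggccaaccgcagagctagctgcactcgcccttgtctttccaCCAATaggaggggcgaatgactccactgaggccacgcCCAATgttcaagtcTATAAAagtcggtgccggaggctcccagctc

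BTG1, chr12:92145847-92146096, minus strand: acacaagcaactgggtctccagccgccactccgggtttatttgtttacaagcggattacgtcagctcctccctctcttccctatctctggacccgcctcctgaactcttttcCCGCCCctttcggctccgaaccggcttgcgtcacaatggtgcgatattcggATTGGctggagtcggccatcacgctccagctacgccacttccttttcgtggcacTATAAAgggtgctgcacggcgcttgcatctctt

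The CDKN1A window held 4 SP1 boxes, at -104, -94, -45 and -40, the last pair sharing a base, and none of the other motifs. The PPM1D window held SP1 boxes at -112 and -19, a CCAAT box at -85, a CRE at -61 and an EGR1 site at -23 that overlapped the SP1 box. GADD45B had an E-box at -168, an EGR1 site at -159, CCAAT boxes at -82 and -45 and a TATA box at -31. BTG1 had an SP1 box at -138, a CCAAT box at -87 and a TATA box at -33. Among all 35114 promoter windows of this length, 42.6% held the SP1 box, 32.0% the CCAAT box, 10.7% the TATA box, 8.41% the EGR1 site, 6.35% the E-box and 1.65% the CRE. The AP-1 site was in 6.57% of all windows, the GAS site in 6.57%, the p53 decamer in 5.57% and the NF-kappaB decamer in 5.21%, and these 4 were in none of the windows printed. Windows were at hand for 7 of the 8 genes, BTG2 included, and none for GADD45A. Over these 12 windows the p53 decamer occurred in 1, a window of SESN1. A match is a description of the letters, and a missing match says nothing of the factor.

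The deposited signal had a median of 101 to 153 per array, and the floor used in the tests, 37.5, was not exceeded by 20.2% to 29.8% of probe sets. Of 12 listed markers of monocytic cells 8 were measured and 7 were above the floor on every array, among them SPI1, ITGAM, FCGR2A and CSF1R, and their summed signal ran from 11266 in CD64 6 h to 17875 in CD32 6 h. Of 6 T cell markers 1 was above the floor on every array, as were 1 of 3 B cell markers, 1 of 3 erythroid and platelet markers and 1 of 7 epithelial and fibroblast markers. These were CD2, CD79A, HBB and KRT8. The number of arrays limits the precision of every value.

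CDKN1A rose in all 4 cross-linked groups, more after CD32 than after CD64 at each time, and higher at 6 h than at 2 h for each receptor. Its probe set, 202284_s_at, read 37.0 and 16.5 on the control arrays, both under the floor. It read 323.1 and 461.1 in CD32 2 h and 1089.6 and 1131.8 in CD32 6 h. It read 118.3 and 170.8 in CD64 2 h and 283.9 and 309.1 in CD64 6 h. No 2 of the 5 groups overlapped. The order of the groups was control, CD64 2 h, CD64 6 h, CD32 2 h, CD32 6 h, with means of 26.8 ± 14.5, 145 ± 37.1, 296 ± 17.8, 392 ± 97.6 and 1111 ± 29.8 (SD, n = 2 each). Because the profile is of bulk RNA, more RNA per cell and more responding cells cannot be told apart.

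Against control CDKN1A was at least 29.6-fold higher in CD32 6 h, the control being set to the floor. It was at least 10.3-fold higher in CD32 2 h, at least 7.9-fold in CD64 6 h and at least 3.79-fold in CD64 2 h. On the log2 scale these are 4.89, 3.36, 2.98 and 1.92, each ± 0.274 (SE, limma), with adjusted p of 1.47e-06, 1.99e-05, 3.36e-05 and 0.000956 (limma, Benjamini-Hochberg over all probe sets tested). The calls held with any single array left out. Leaving out either control array could not change these log2 changes, because both were set to the floor. The floor also removed the spread between the 2 control arrays, so the SE does not include it. The call in CD64 2 h was lost when only those 2 groups entered the fit (adjusted p = 0.0895). With other scalings, floors and models, and with arrays left out, the changes ran from 3.82 to 5.49 in CD32 6 h, from 2.3 to 3.97 in CD32 2 h, from 1.92 to 3.58 in CD64 6 h and from 0.86 to 2.52 in CD64 2 h.

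**Figure D1:**
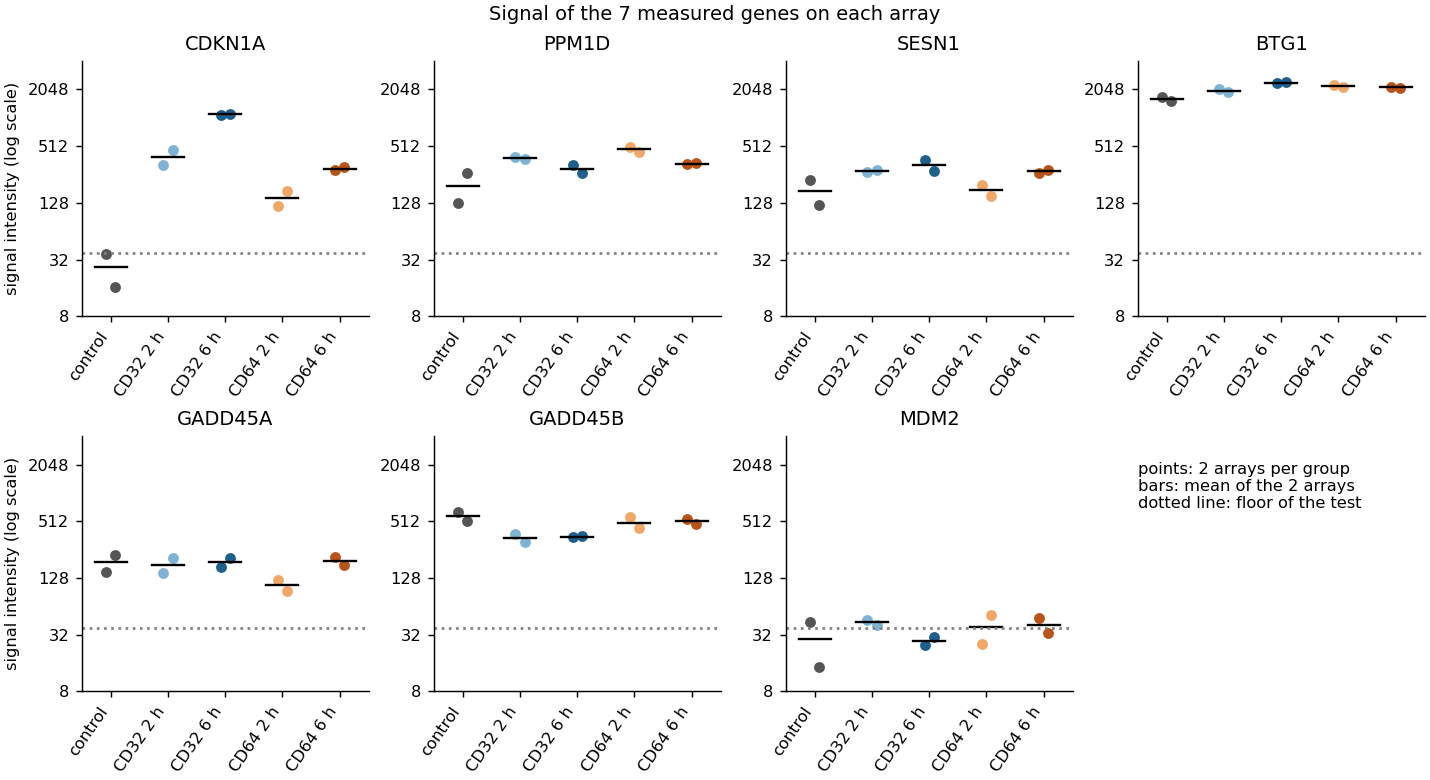
Signal intensity of the 7 measured genes (y axis, log scale) in the 5 groups (x axis); points are the 2 arrays of a group, bars their mean and the dotted line the floor of 37.5. CDKN1A climbs from under the floor to 1111 in CD32 6 h, MDM2 stays between 14.5 and 52.2, and BTG1 lies between 1556.0 and 2464.6 throughout.

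The receptors differed in CDKN1A at both times. CD64 lay 2.72-fold under CD32 at 2 h (log2 change -1.44 ± 0.274, 95% interval -2.05 to -0.84, adjusted p = 0.00477, limma). At 6 h it lay 3.75-fold under CD32 (-1.91, interval -2.51 to -1.3, adjusted p = 0.000854, limma). The later of the CD64 groups did not differ from the earlier of the CD32 groups beyond their spread (CD64 6 h against CD32 2 h -0.38, interval -0.99 to 0.22, adjusted p = 0.525, limma). The 6 h difference held with any single array left out, whereas the 2 h difference was lost without CD32 2 h replicate 2 (adjusted p = 0.0667, limma) and with only the 2 groups in the fit (0.108).

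Between 2 h and 6 h CDKN1A rose 2.88-fold after CD32 (log2 change 1.52 ± 0.274, adjusted p = 0.013, limma) and 2.08-fold after CD64 (1.06 ± 0.274, adjusted p = 0.0259, limma). The difference between these time courses was not detectable with these arrays (interaction of receptor and time -0.47 ± 0.387, interval -1.32 to 0.39, adjusted p = 0.544, limma). Both time changes were sensitive to single arrays and to the settings. With only the groups compared both calls were lost (adjusted p of 0.131 after CD32 and 0.143 after CD64, limma). The CD64 call was also lost after cyclic loess (0.0953), median scaling (0.177) and with a floor at percentile 10 (0.0897, limma). The CD32 call was lost without either CD32 2 h array (adjusted p of 0.12 and 0.0634, limma) and without either CD32 6 h array (0.107 and 0.0925). The CD64 call was lost without CD64 2 h replicate 1 (0.159), without CD64 6 h replicate 1 (0.113) or 2 (0.154), and without CD32 6 h replicate 1 (0.0589) or 2 (0.0591), as well as after quantile normalization (0.113).

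A set of 9 bacterial and phage control probe sets, which carry no gene of the cells, also differed between groups. After CD32 their mean log2 signal was 11.47 at 2 h and 12.61 at 6 h, beside 10.89 in control, and after CD64 it was 11.19 at 2 h and 9.61 at 6 h. The signal of the 3′ actin probe set over that of the 5′ one, a measure of RNA and labelling quality, was 1.3 in control, 1.56 and 1.99 after CD32, and 1.81 and 1.12 after CD64, at 2 h and 6 h. Their part in the CDKN1A result was not tested. In CD32 2 h, CD32 6 h and CD64 2 h both measures lay above control, as CDKN1A did. Both were highest in CD32 6 h, as was CDKN1A. In CD64 6 h both lay under control while CDKN1A lay above it.

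Of the feedback genes, PPM1D was called and MDM2 was not. MDM2 (205386_s_at) lay near the floor, with 5 of 10 arrays above it. Its arrays read 43.1 and 14.5 in control, 45.5 and 40.7 in CD32 2 h, 24.7 and 30.3 in CD32 6 h, 25.4 and 52.2 in CD64 2 h, and 47.9 and 33.1 in CD64 6 h. Every cross-linked group overlapped with control, and no fold is given. The log2 changes against control lay between -0.1 and 0.14 with the floor in place, and none passed the test. At this signal a change of MDM2 below the floor could not be measured.

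PPM1D, the phosphatase also called WIP1, was called higher at 2 h after each receptor. Its probe set, 204566_at, read 126.3 and 262.2 in control, 388.3 and 374.7 in CD32 2 h and 505.3 and 445.3 in CD64 2 h. At 6 h it read 322.9 and 264.6 after CD32 and 327.7 and 339.1 after CD64. Every cross-linked array was above both controls, and the controls themselves differed widely. The change was 2.61-fold in CD64 2 h (log2 change 1.38 ± 0.296, adjusted p = 0.00985, limma) and 2.1-fold in CD32 2 h (1.07 ± 0.296, adjusted p = 0.0338, limma). At 6 h the values were 0.87 ± 0.296 after CD64 (adjusted p = 0.062) and 0.68 ± 0.296 after CD32 (0.141, limma), which did not pass.

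The values of PPM1D moved with the control arrays. Without control replicate 1 the change was 0.54 in CD32 2 h and 0.86 in CD64 2 h, and without replicate 2 it was 1.59 and 1.91. Without control replicate 2 all 4 groups were called, with adjusted p of 0.00887 in CD32 6 h and 0.00475 in CD64 6 h (limma). The CD32 2 h call was lost when any of the other 9 arrays was left out (0.0589 to 0.176), and the CD64 2 h call without either of its own arrays (0.0821 and 0.0502). The CD32 2 h call was also lost in 5 of 11 other settings, namely quantile normalization (0.0512), median scaling (0.119), no filter (0.109), no variance trend (0.0793) and only the groups compared (0.274). The CD64 2 h call was lost with no filter (0.051) and with only the groups compared (0.218). Differences of PPM1D between receptors were 0.31 at 2 h (interval -0.34 to 0.97) and 0.19 at 6 h (-0.47 to 0.84). None of its changes from 2 h to 6 h passed the test.

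Neither stress sensor of the GADD45 family was called higher in any comparison. GADD45A (203725_at) read 147.4 and 226.2 in control, 143.3 and 208.2 in CD32 2 h, 168.7 and 206.1 in CD32 6 h, 122.4 and 92.0 in CD64 2 h, and 214.4 and 175.0 in CD64 6 h. Only the CD64 2 h arrays lay apart, under both controls (log2 change -0.78 ± 0.354, adjusted p = 0.179, limma). The other changes against control were -0.08, 0.03 and 0.09, with intervals between -0.86 and 0.87. GADD45A was not called in any comparison.

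GADD45B was lower after CD32 at both times. Its probe set, 207574_s_at, read 646.3 and 515.6 in control, 373.6 and 306.6 in CD32 2 h and 347.8 and 356.4 in CD32 6 h. After CD64 it read 560.6 and 431.4 at 2 h and 545.1 and 478.7 at 6 h, overlapping with control. It fell 1.71-fold in CD32 2 h (log2 change -0.77 ± 0.189, adjusted p = 0.0192, limma) and 1.64-fold in CD32 6 h (-0.71 ± 0.189, adjusted p = 0.0217, limma). The values after CD64 were -0.23 (adjusted p = 0.492) and -0.18 (0.622, limma). Thus CDKN1A and GADD45B, both counted among growth arrest genes, were called in opposite directions in the CD32 groups.

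The receptor difference of GADD45B itself was 0.54 ± 0.189 at 2 h (interval 0.12 to 0.96, adjusted p = 0.0814) and 0.54 ± 0.189 at 6 h (0.12 to 0.95, adjusted p = 0.0781, limma), so it did not pass at either time. It was called at 2 h after quantile normalization (0.0346) or cyclic loess (0.0305). The CD32 calls were lost without control replicate 1 (adjusted p of 0.129 at 2 h and 0.148 at 6 h, limma). The 2 h call was also lost without either CD32 2 h array (0.0518 and 0.146), and the 6 h call without either CD32 6 h array (0.107 and 0.0825). Both were lost with median scaling (0.0768 and 0.115), without the variance trend (0.0526 and 0.0533) and with only the groups compared (0.133 and 0.101), and the 6 h call without the filter (0.0526).

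BTG1 rose by a small amount in all 4 groups. Its probe set, 200921_s_at, read 1705.4 and 1556.0 in control, 2059.5 and 1920.1 in CD32 2 h, 2370.1 and 2464.6 in CD32 6 h, 2275.2 and 2169.3 in CD64 2 h, and 2177.4 and 2146.8 in CD64 6 h. All 8 cross-linked arrays lay above both controls, and the arrays of each group lay close together. BTG1 was 1.48-fold higher in CD32 6 h (log2 change 0.57 ± 0.0871, adjusted p = 0.000967, limma). It was 1.36-fold higher in CD64 2 h (0.45, adjusted p = 0.00584) and 1.33-fold in CD64 6 h (0.41, 0.00645, limma). In CD32 2 h it was 1.22-fold higher (0.29, adjusted p = 0.0479, limma).

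The last of these calls sat at the threshold. It was lost when any array other than control replicate 1 was left out (adjusted p of 0.0561 to 0.203, limma), and with 8 of 11 other settings. The other 3 calls of BTG1 held with any single array left out but not in every other setting. With only the groups compared all 3 were lost (0.0504 in CD32 6 h and, after CD64, 0.0955 at 2 h and 0.0602 at 6 h). Without the variance trend both CD64 calls were lost (0.0715 at 2 h and 0.0762 at 6 h), and with median scaling that of CD64 6 h (0.203). The receptors differed by 0.16 at 2 h (interval -0.03 to 0.35) and by -0.16 at 6 h (-0.35 to 0.03), neither past the test. CD32 6 h minus 2 h was 0.28 (interval 0.09 to 0.47) and CD64 6 h minus 2 h was -0.04 (-0.23 to 0.15).

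SESN1, the sestrin, did not pass the test as the values were deposited. Its probe set, 218346_s_at, read 222.9 and 120.4 in control, 274.3 and 287.4 in CD32 2 h, 360.6 and 276.9 in CD32 6 h, 195.6 and 149.7 in CD64 2 h, and 268.5 and 284.2 in CD64 6 h. The CD32 2 h, CD32 6 h and CD64 6 h arrays all lay above both controls, whereas CD64 2 h fell between them. The log2 changes were 0.95 ± 0.316 in CD32 6 h (adjusted p = 0.0586), 0.78 in CD32 2 h (0.138) and, after CD64, 0.06 at 2 h (0.95) and 0.75 at 6 h (0.13, limma). Without control replicate 1 those of CD32 6 h (0.0181), CD32 2 h (0.0356) and CD64 6 h (0.028) were called. The CD32 6 h value was also called after quantile normalization (0.0206), cyclic loess (0.0202) and median scaling (0.0385), and in 3 further settings.

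**Figure D2:**
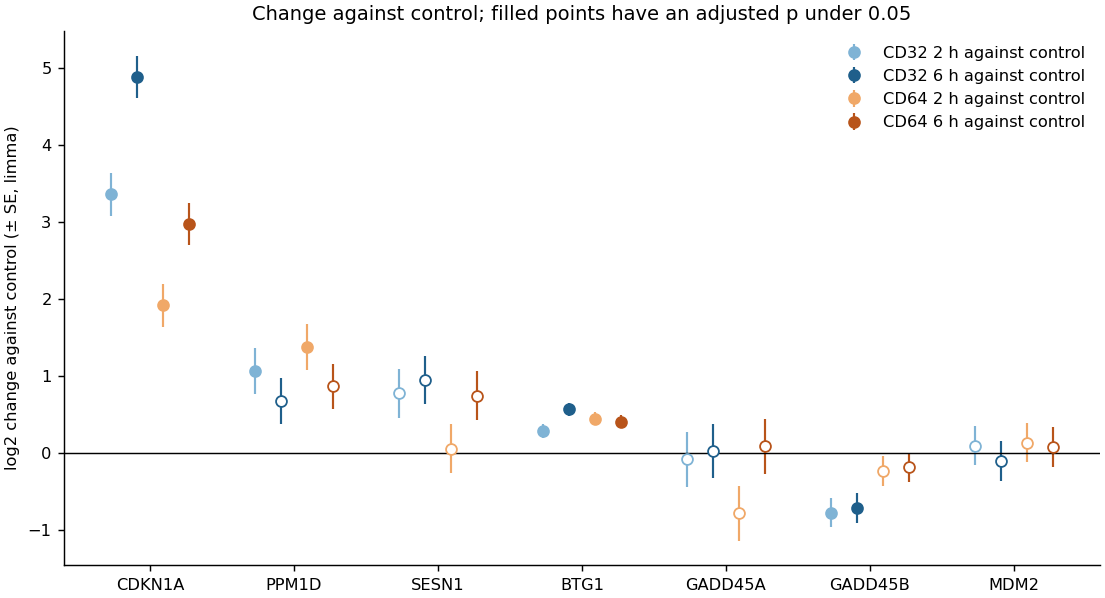
Log2 change of each measured gene against control (y axis) in the 4 cross-linked groups (colours); bars are the SE from limma and filled points have an adjusted p under 0.05. CDKN1A lies between 1.92 and 4.89, which are lower bounds because its control arrays were under the floor, while GADD45B is filled below 0 in the CD32 groups.

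Counted together, 3 of the 7 genes rose and 1 fell in CD32 2 h, where 8.86% of all 7708 probe sets tested rose and 6.60% fell. In CD32 6 h 2 rose and 1 fell, against 9.63% and 10.3% of all. In CD64 2 h 3 rose and none fell, against 7.64% and 8.24%. In CD64 6 h 2 rose and none fell, against 10.7% and 9.94%. The median log2 change of the 7 was 0.29, 0.57, 0.14 and 0.41 in these comparisons, beside -0.03, -0.08, -0.13 and -0.04 over all probe sets.

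The set thus did not move as 1 block. CDKN1A and BTG1 were called in all 4 groups, PPM1D in the 2 h groups, GADD45B in the CD32 groups, and GADD45A, MDM2 and SESN1 in none. On the higher side the arrays lay apart from control for 4 of 7 genes in every group but CD64 2 h, where 3 did. Of all probe sets, 23.1% (CD32 2 h), 21.9% (CD32 6 h), 18.1% (CD64 2 h) and 24.7% (CD64 6 h) lay apart on that side. With 2 arrays against 2 such separation is common.

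Between the receptors CDKN1A was the only one of the 7 to be called, lower after CD64 at 2 h and at 6 h, where 9.43% and 7.80% of all probe sets were lower. It was also the only one called between 2 h and 6 h, after CD32 (2.04% of all probe sets rose) and after CD64 (7.56% rose). For the interaction of receptor and time limma called none of the 7, where 11.5% of all probe sets were called in either direction. The lowest adjusted p of the 7 was that of BTG1 (-0.32 ± 0.123, adjusted p = 0.133, limma).

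Among 2109 probe sets of other genes whose group means spanned at least 1 log2 unit, those with the highest Pearson correlation to CDKN1A over the 10 arrays were TM9SF2 (r = 0.976), SLC38A2 (0.967), CD83 (0.966), DUSP5 (0.965), KLF10 (0.963) and RUNX3 (0.963). TM9SF2 is a transmembrane protein of the endosomal system and SLC38A2 a neutral amino acid transporter. CD83 is an activation marker of dendritic cells, DUSP5 a phosphatase of ERK, KLF10 a TGF-beta inducible zinc finger factor and RUNX3 a transcription factor. The arrays of a group share their treatment, so these values describe a profile and carry no p.

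The group means of TM9SF2, CD83, DUSP5, KLF10 and RUNX3 had the same order as those of CDKN1A. CD83 read 138 ± 43.4 in control. After CD32 it read 598 ± 47.8 at 2 h and 976 ± 106 at 6 h, and after CD64 276 ± 23.1 at 2 h and 589 ± 62.1 at 6 h (SD, n = 2). KLF10 read 1108 ± 5.3, 1578 ± 115, 566 ± 72.5 and 828 ± 107 in the same cross-linked groups after 210 ± 65.3 in control. SLC38A2 differed in 1 respect, with a CD64 mean of 3054 ± 278 at 2 h and 2998 ± 205 at 6 h, values within 1 SD of each other. In all 6 the mean was lowest in control and highest in CD32 6 h.

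For PPM1D, the other gene whose group means spanned at least 1 log2 unit, the most alike were PIK3R3 (r = 0.929), a regulatory subunit of phosphoinositide 3-kinase, DUSP12 (0.916), a phosphatase, and CSRNP2 (0.892), a nuclear protein. CSRNP2 read 94.0 ± 6.01 in control. After CD32 it read 224 ± 28.5 at 2 h and 164 ± 8.27 at 6 h, and after CD64 243 ± 6.29 at 2 h and 189 ± 17.8 at 6 h (SD, n = 2). Its mean was thus higher at 2 h than at 6 h after each receptor, as was that of PPM1D. The PPM1D changes from 2 h to 6 h did not pass the test.

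**Figure D3:**
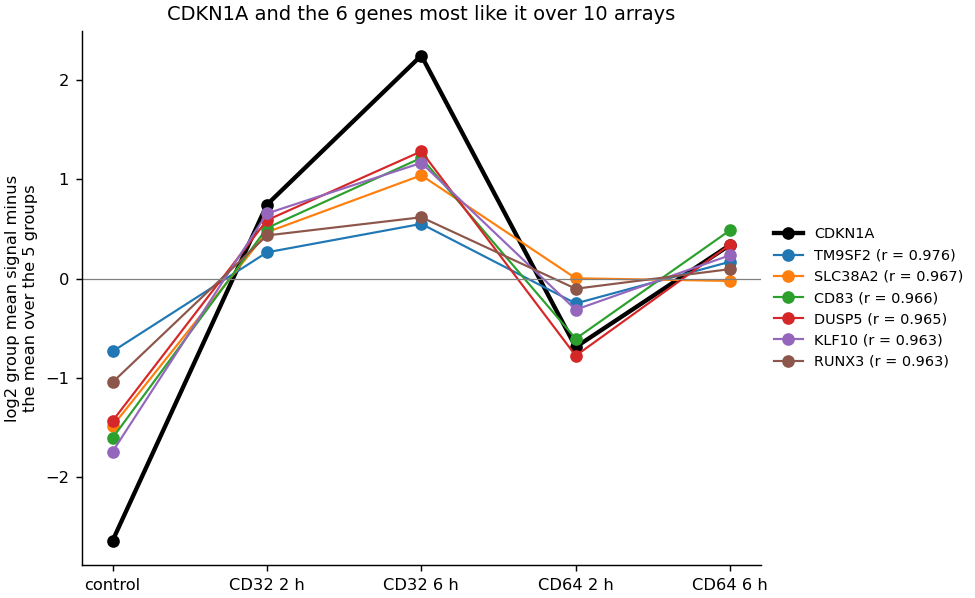
Group means of CDKN1A and of the 6 genes most like it (x axis, the 5 groups), each as log2 signal minus that gene's mean over the 5 groups (y axis), with lines only to guide the eye and r over the 10 arrays in the key. All 7 are lowest in control and highest in CD32 6 h, and CDKN1A, whose control value is the floor of 37.5, spans the widest range.

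Other p53 target genes were called in both directions. A list of 61 held 41 with a probe set, of which 39 were tested. In CD32 2 h 7 rose and 3 fell, beside 8.86% and 6.60% of all probe sets. In CD32 6 h 4 rose and 4 fell (9.63% and 10.3% of all), in CD64 2 h 5 and 4 (7.64% and 8.24%), and in CD64 6 h 9 and 2 (10.7% and 9.94%). The median log2 change of the list was 0.08, 0.11, -0.04 and 0.07, beside -0.03, -0.08, -0.13 and -0.04 over all. With each array left out in turn the number that rose ran from 2 to 6, 3 to 4, 3 to 5 and 4 to 10, fewest without CD32 2 h replicate 1 in CD32 2 h and without CD64 6 h replicate 1 in CD64 6 h.

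The targets called higher in all 4 groups were TNFRSF10B, PMAIP1 and TIGAR, and TNFAIP8 was called lower in all 4. TNFRSF10B, the death receptor DR5, read 523.8 and 423.6 in control, 1399.2 and 1209.5 in CD32 2 h, 1536.1 and 1615.1 in CD32 6 h, 1216.1 and 1108.5 in CD64 2 h, and 1427.7 and 1260.3 in CD64 6 h. Its log2 changes were 1.47, 1.74, 1.3 and 1.51, each ± 0.13, with adjusted p of 0.000131 or lower (limma). Unlike CDKN1A, it did not differ detectably between receptors, with -0.16 at 2 h (interval -0.45 to 0.12) and -0.23 at 6 h (-0.52 to 0.06).

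PMAIP1, the BH3-only protein NOXA, read 250.1 and 226.0 in control, 511.3 and 586.8 in CD32 2 h, 535.1 and 707.2 in CD32 6 h, 474.4 and 496.4 in CD64 2 h, and 1021.7 and 971.6 in CD64 6 h. Its changes were 1.2, 1.37, 1.03 and 2.07, each ± 0.161, with adjusted p from 1.26e-05 to 0.00167 (limma). Its highest group was CD64 6 h, and it rose 1.04 ± 0.161 between 2 h and 6 h after CD64 (adjusted p = 0.00186, limma), a call that held with any single array left out. At 6 h it was higher after CD64 than after CD32 by 0.7 ± 0.161 (adjusted p = 0.013, limma), which is the opposite direction to CDKN1A. That call was lost without CD32 6 h replicate 1 and without either CD64 6 h array (adjusted p up to 0.1).

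TIGAR, a fructose bisphosphatase that slows glycolysis, rose by 2.17 in CD64 2 h and 2.0 in CD64 6 h, each ± 0.29 (adjusted p of 0.000648 and 0.000607, limma). Its arrays read 88.2 and 81.4 in control, 400.0 and 362.4 in CD64 2 h and 379.7 and 303.1 in CD64 6 h. Its CD32 values of 1.18 and 1.19 were called (0.0194 and 0.0144, limma), but the call was lost for 4 and 2 of 10 left-out arrays, up to an adjusted p of 0.123 and 0.11. DDB2, a DNA damage recognition protein, fell by 1.82 ± 0.277 in CD32 6 h (adjusted p = 0.000927, limma), where its arrays read 433.9 and 200.4 against 959.6 and 1136.8 in control. The DDB2 values elsewhere, -0.4, -0.38 and -0.76, did not pass.

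TM7SF3, a membrane protein, was also lower, with 213.3 and 251.8 in control, 111.2 and 51.0 in CD32 2 h, 76.1 and 66.5 in CD32 6 h and 46.8 and 68.9 in CD64 2 h. Its changes of -1.62, -1.7 and -2.03, each ± 0.438, were called (adjusted p of 0.0301, 0.0188 and 0.0102, limma), but these calls were lost for 7, 4 and 2 of 10 left-out arrays (up to 0.197). BAX was at least 2.84-fold lower in CD64 2 h (log2 change -1.51 ± 0.391, adjusted p = 0.0244, limma). Its other changes against control did not pass. ENC1 rose by 1.34 in CD32 2 h and 1.4 in CD64 6 h, each ± 0.37 (adjusted p of 0.0325 and 0.0207, limma), and did not pass in CD32 6 h or CD64 2 h. The next pair of genes fall outside the naming rule and were chosen after their values were seen. TNFAIP8, a regulator of apoptosis, changed by -0.82, -1.04, -0.71 and -0.45, each ± 0.141 (adjusted p of 0.00274, 0.000432, 0.00632 and 0.0429, limma). Its CD64 calls were lost for 1 left-out array at 2 h (0.0614 without control replicate 1) and for 6 at 6 h (up to 0.203). CCNG1, the cyclin G1, read 4188.9 and 4577.4 in control, 2794.9 and 2815.8 in CD32 2 h, 2744.7 and 2650.8 in CD32 6 h, 5016.5 and 5102.1 in CD64 2 h, and 2040.1 and 2031.4 in CD64 6 h. It fell by 0.64, 0.7 and 1.1 in CD32 2 h, CD32 6 h and CD64 6 h, each ± 0.0803 (adjusted p of 0.000367, 0.000145 and 8.6e-06, limma). These calls of CCNG1 held with any single array left out, and those after CD32 were lost with median scaling.

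**Figure D4:**
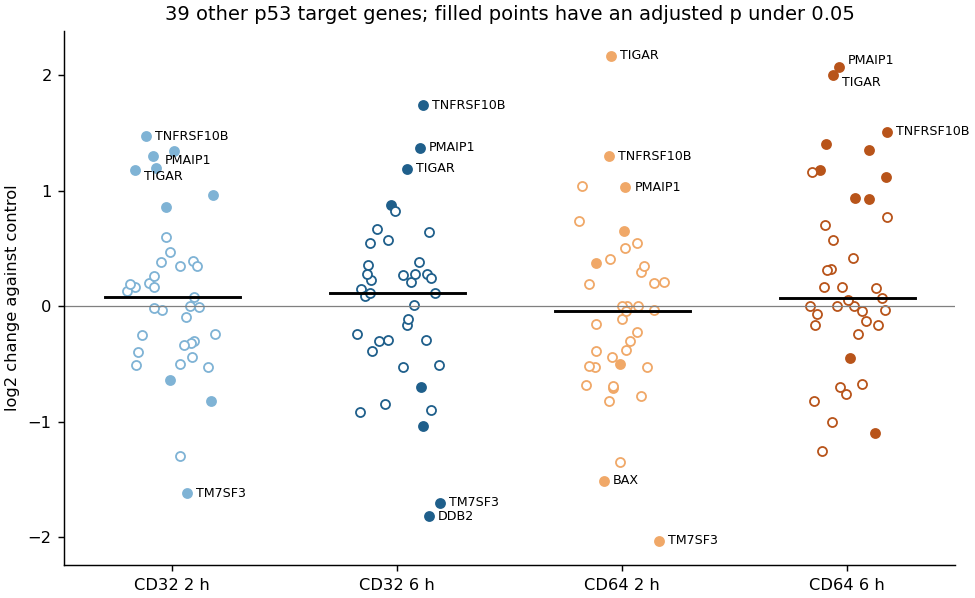
Log2 change against control (y axis) of the 39 other p53 target genes tested, in the 4 cross-linked groups (x axis), with filled points for an adjusted p under 0.05 and a bar at the median; points are spread sideways at random. The medians lie between -0.04 and 0.11, with TNFRSF10B, PMAIP1 and TIGAR filled above 1 in each group.

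Among 16 tested regulators of p53, 3 rose and 2 fell in CD32 2 h, 2 and 3 in CD32 6 h, 3 and 1 in CD64 2 h, and 4 and 2 in CD64 6 h. Over all probe sets 7.64% to 10.7% rose and 6.60% to 10.3% fell in these comparisons. The medians were 0.21, -0.22, 0.07 and -0.02. With an array left out, the lowest counts that rose were 1, 0, 2 and 2, and the lowest that fell 0, 1, 0 and 1. CREBBP, a histone and p53 acetyltransferase, rose after CD64 by 0.97 and 1.18, each ± 0.132 (adjusted p of 0.000736 and 0.000113, limma). It lay higher after CD64 than after CD32 by 0.88 ± 0.132 at 6 h (adjusted p = 0.00117, limma), a difference that held with any single array left out. SIRT1, a deacetylase of p53, rose by 1.27 ± 0.169 in CD64 2 h (adjusted p = 0.000639, limma), from 261.8 and 314.6 to 712.0 and 669.9. Its other arrays also lay above both controls, with 461.1 and 485.9 in CD32 2 h, 441.3 and 568.1 in CD32 6 h and 512.3 and 458.0 in CD64 6 h. MDM4, the MDM2 relative that masks p53, read 131.7 and 112.9 in control and 24.1 and 9.3, both under the floor, in CD32 6 h. It was at least 3.25-fold lower there (adjusted p = 0.00454, limma). The damage kinases ATM, ATR and CHEK2 did not pass in any comparison with control, and CHEK1 passed only in CD32 6 h, where it fell by 0.81 (adjusted p = 0.0336), a call lost for 8 of 10 left-out arrays (up to 0.142).

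Of the 8 relatives of these genes that were tested, 1 rose and 2 fell at each time after CD32, and 1 rose and none fell at each time after CD64, where 7.64% to 10.7% of all probe sets rose and 6.60% to 10.3% fell. The medians were 0.11, -0.06, -0.09 and -0.14. CDKN1B, which encodes the CDK inhibitor p27, fell after CD32 from 2172.8 and 1965.5 in control to 1274.3 and 1220.3 at 2 h and 890.0 and 1162.3 at 6 h. Its changes were -0.73 and -1.02, each ± 0.122 (adjusted p of 0.00244 and 0.000182, limma). After CD64 it read 1723.0 and 1783.8 at 2 h and 1675.0 and 1751.4 at 6 h, with changes of -0.24 and -0.27 that did not pass. CD64 was above CD32 by 0.75 ± 0.122 at 6 h (adjusted p = 0.0019, limma), which held with any single array left out. At 2 h it was above by 0.49 (0.0191), which was lost without any of the 4 arrays compared (adjusted p up to 0.14).

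PPM1B, a PPM phosphatase like PPM1D, fell after CD32 and not after CD64. It read 718.5 and 507.7 in control, 199.5 and 244.6 in CD32 2 h, 136.9 and 177.1 in CD32 6 h, 930.5 and 830.7 in CD64 2 h, and 436.5 and 467.1 in CD64 6 h. Its changes were -1.45 and -1.96 after CD32, each ± 0.216 (adjusted p of 0.00118 and 0.000109, limma), and 0.54 and -0.42 after CD64, which did not pass. The receptors differed by 1.99 at 2 h and 1.54 at 6 h (adjusted p of 0.00022 and 0.000754, limma), and both differences held with any single array left out. PPM1A rose by 1.33 ± 0.26 in CD64 6 h (adjusted p = 0.00392, limma), while its other calls were lost for 2 to 9 left-out arrays. CDKN1C, GADD45G, BTG3, TOB1 and PPM1G did not pass in any comparison with control.

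The kinases and cyclins that p21 binds, with its other partners, gave 18 tested genes. In CD32 2 h 3 rose and 4 fell, in CD32 6 h 3 and 5, in CD64 2 h 3 and 1, and in CD64 6 h 3 and 0, where 7.64% to 10.7% of all probe sets rose and 6.60% to 10.3% fell. The medians of 0.03, 0.06, 0.04 and 0.02 were near those of all probe sets. Without CD32 6 h replicate 1 the number that fell there was 1, and without replicate 2 it was 2. CCND3, the D-type cyclin, rose in all 4 groups by 1.7, 1.45, 0.92 and 1.29, each ± 0.116 (adjusted p of 0.000483 or lower, limma), from 794.0 and 897.5 in control to 2963.6 and 2552.6 in CD32 2 h. CCNE2, an E-type cyclin of the entry into S phase, was highest where CDKN1A was not. It read 106.2 and 117.5 in control, 292.4 and 224.6 in CD32 2 h, 182.6 and 236.6 in CD32 6 h, 497.8 and 446.8 in CD64 2 h, and 830.0 and 712.8 in CD64 6 h. CD64 was above CD32 by 1.89 ± 0.227 at 6 h (adjusted p = 0.00027, limma).

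Genes that other inputs to CDKN1A work through were tested as 19 of a list of 23. In CD32 2 h 8 rose and 3 fell, in CD32 6 h 4 and 5, in CD64 2 h 2 and 6, and in CD64 6 h 7 and 5. The shares of all probe sets were 8.86%, 9.63%, 7.64% and 10.7% that rose and 6.60%, 10.3%, 8.24% and 9.94% that fell. The medians were 0.18, -0.16, 0.15 and 0.13. With an array left out the number that rose ran from 3 to 8 in CD32 2 h, fewest without control replicate 1 or CD32 2 h replicate 2, and from 2 to 8 in CD64 6 h, fewest without control replicate 1 or CD64 6 h replicate 2. MYC, which is known to repress CDKN1A, fell from 1787.6 and 2059.0 in control to 410.8 and 515.7 in CD32 2 h and 346.0 and 328.9 in CD32 6 h. After CD64 it read 1157.9 and 1346.9 at 2 h and 656.6 and 606.4 at 6 h.

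The changes of MYC were -2.06, -2.51, -0.62 and -1.6 in CD32 2 h, CD32 6 h, CD64 2 h and CD64 6 h, each ± 0.143 (adjusted p of 6.78e-06, 1.47e-06, 0.014 and 2.88e-05, limma). The CD64 2 h call did not hold when control replicate 2 or CD64 2 h replicate 1 was dropped (adjusted p up to 0.118). The order of its group means was the reverse of that of CDKN1A. Whether MYC has a part in the CDKN1A result was not tested. CD64 was above CD32 by 1.44 at 2 h and 0.9 at 6 h (adjusted p of 0.000136 and 0.00158, limma), and these held with any single array left out.

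ATF3, a stress-induced factor, rose by 1.87, 2.82 and 1.42 in CD32 2 h, CD32 6 h and CD64 6 h, each ± 0.273 (adjusted p of 0.00105, 4.63e-05 and 0.00352, limma), and its CD64 2 h value of 0.37 did not pass. EGR1, an immediate early factor, rose by 3.92 ± 0.313 in CD32 6 h (adjusted p = 1.28e-05, limma), from 62.4 and 63.4 to 1038.4 and 877.8. Its values of 1.2 in CD32 2 h and, after CD64, 1.46 at 2 h and 1.17 at 6 h were called, but these calls were lost for 6, 1 and 4 of 10 left-out arrays, up to an adjusted p of 0.133, 0.0882 and 0.14. Its interaction of receptor and time was -3.01 ± 0.443 (adjusted p = 0.00182, limma). KLF4, a zinc finger activator of CDKN1A, rose by 1.42, 1.97, 1.36 and 1.69, each ± 0.284 (adjusted p of 0.00629, 0.000663, 0.00852 and 0.00154, limma). The 2 h calls of KLF4 were lost without CD32 2 h replicate 2 (0.0652) or without control replicate 1 or CD64 2 h replicate 1 (up to 0.0808). KLF6, another factor of the KLF family, went the other way, with every cross-linked array under both controls. It read 575.6 and 503.6 in control, 198.2 and 166.1 in CD32 2 h and 229.8 and 242.1 in CD32 6 h. After CD64 it read 120.1 and 234.3 at 2 h and 423.2 and 457.9 at 6 h. FOXO3, a forkhead activator, fell by 1.21 in CD32 6 h and, after CD64, by 1.45 at 2 h and 1.13 at 6 h, each ± 0.153 (adjusted p of 0.000266, 0.000181 and 0.000397, limma).

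Of the genes repressed by DREAM, the complex that p21 helps to assemble at cell cycle promoters, 21 were tested. In CD32 6 h 13 fell and 0 rose, and in CD64 6 h 10 fell and 1 rose, beside 10.3% and 9.94% of all probe sets that fell. In CD32 2 h 7 fell and 1 rose, and in CD64 2 h 5 fell and 1 rose, beside 6.60% and 8.24%. The medians in CD32 2 h, CD32 6 h, CD64 2 h and CD64 6 h were -0.2, -0.57, -0.14 and -0.43, beside -0.03, -0.08, -0.13 and -0.04 over all. The counts of falls ran from 2 to 12 in CD32 6 h and from 4 to 11 in CD64 6 h under other scalings, where the medians were -0.5 to -0.46 and -0.46 to -0.36. With an array left out they ran from 8 to 12 in CD32 6 h, fewest without control replicate 1, and from 6 to 10 in CD64 6 h, fewest without control replicate 2. The counts at 2 h were less stable. In CD64 2 h the falls dropped to 0 under another scaling and without control replicate 2, and the median ran from -0.2 to 0.14 under other scalings. In CD32 2 h they dropped to 1 under another scaling and to 3 without control replicate 2 or CD32 2 h replicate 2.

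MCM2, a subunit of the replicative helicase, fell by 0.98 ± 0.096 in CD32 6 h and 0.73 in CD64 6 h (adjusted p of 4.95e-05 and 0.000328, limma). It read 4239.0 and 4290.0 in control, 2351.2 and 2000.8 in CD32 6 h and 2477.1 and 2676.7 in CD64 6 h. TOP2A, the topoisomerase of dividing cells, fell by 1.17, 0.75 and 1.11 in CD32 2 h, CD32 6 h and CD64 6 h, each ± 0.101 (adjusted p of 2.85e-05, 0.000422 and 3.17e-05, limma). In CD64 2 h it was -0.12 and did not pass, and there it lay above CD32 2 h by 1.05 (adjusted p = 0.000119, limma). CDC6, which loads the helicase, went the other way in CD64 6 h, where it rose by 1.14 ± 0.158 (adjusted p = 0.000438, limma) from 285.7 and 316.2 to 637.8 and 691.4.

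The last 3 lists follow the other members. Of 10 tested genes of the p38 and JNK route that GADD45 proteins feed, no more than 2 rose and no more than 1 fell in any comparison with control, beside the same shares of all probe sets, 7.64% to 10.7% higher and 6.60% to 10.3% lower. The medians were 0.46, 0.29, 0.06 and 0.15. Leaving out arrays emptied each of these counts. Of 8 tested partners of BTG proteins in the CCR4-NOT complex and beyond, 1 rose in each group and 2, 1, 2 and 3 fell, where 7.64% to 10.7% of all probe sets rose and 6.60% to 10.3% fell. The falls in CD32 2 h numbered 0 without control replicate 1 or either CD32 2 h array, and those in CD64 6 h 1 without control replicate 1 or CD64 6 h replicate 2. The rise in CD64 2 h was lost for 7 of 10 left-out arrays, and that in CD64 6 h without control replicate 2 or either CD64 6 h array. CNOT4, a ubiquitin ligase of the complex, rose by 1.84 and 1.64 after CD32, each ± 0.262 (adjusted p of 0.000879 and 0.00125, limma), from 114.7 and 88.7 in control to 377.2 and 345.8 in CD32 2 h. After CD64 the CNOT4 arrays also lay above both controls, with 191.8 and 187.9 at 2 h and 195.3 and 213.4 at 6 h. PRMT1, an arginine methyltransferase that binds BTG1, fell by 0.67 in CD32 6 h and 0.77 in CD64 2 h, each ± 0.101 (adjusted p of 0.000846 and 0.00056, limma).

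Of 15 tested genes of the sestrin and mTORC1 axis, 2, 1, 0 and 1 rose and 1, 3, 3 and 4 fell, with medians of -0.13, -0.29, -0.05 and 0.11. EIF4EBP1, the translation repressor that mTORC1 inactivates, fell by 0.51, 0.96 and 0.48 in CD32 6 h, CD64 2 h and CD64 6 h, each ± 0.102 (adjusted p of 0.00473, 0.000181 and 0.00588, limma). RRAGC, a Rag GTPase that brings mTORC1 to the lysosome, rose by 0.98 ± 0.124 in CD32 2 h (adjusted p = 0.000406, limma). Over all probe sets 7.64% to 10.7% rose and 6.60% to 10.3% fell. The falls in CD64 6 h numbered 1 without control replicate 2 or CD64 6 h replicate 1, and those in CD32 6 h 1 without control replicate 2. In CD64 2 h they numbered 1 for 7 of 10 left-out arrays, and the rise in CD32 6 h was lost for 8. The fall in CD32 2 h was lost for 8 of 10 left-out arrays.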

How the data were processed

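RNA of U937 cells, 10 samples in 5 groups of 2, was measured on 1-colour oligonucleotide arrays. The values deposited by the authors are linear intensities of single probe sets. The values had been scaled before deposit: the mean without the lowest and highest 2% was 499.4 to 499.9 on each array. The scaling software is not given in the sources used here. Symbols came from the platform annotation: of 8746 probe sets that were not controls, 7840 had 1 symbol, 388 several and 518 none.

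Intensities under 37.5, percentile 25 of all values, were set to that floor and log2 was taken. The tests took in 7708 probe sets whose signal passed the floor on 2 or more arrays, 6925 of them with 1 symbol, for 6814 genes. With limma 3.58.1 in R 4.3.3, a model with 1 term per group was fitted to all 10 arrays (lmFit, then eBayes with a variance trend). It had 5 residual and 5.65 prior degrees of freedom and a median SD of 0.259 log2. Tests were two-sided, adjusted by Benjamini-Hochberg over all 7708, and called under 0.05. Where the lower group lay at the floor, a fold is a lower bound. The code was checked on simulated data.

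The 8 genes, the 9 gene lists and the naming rule were chosen with earlier results of these data known. The rule took, from each list and comparison with control, up to 3 called genes with the largest change whose arrays lay apart from control, the relatives of the 8 genes and the p53 regulators whether or not they changed, and the genes most alike to CDKN1A (6) and to others spanning 1 log2 unit (3). CCNG1 and TNFAIP8 were added after their values were seen. A gene of a list was read through its brightest probe set of that single symbol. Alternatives were quantile, cyclic loess and median scaling, floors at percentile 10 and 40, a pseudocount of 16 without floor, no filter, a filter of 5 arrays, no variance trend, a mean over probe sets, only the groups compared, and each array left out. The comparisons of CD64 6 h with CD32 2 h and of CD64 2 h with CD32 6 h were added after the data were seen.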

Additional observations from a re-analysis of the deposited data

Results flagged for a closer look

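CDKN1A differed between the receptors by a direct test at both times. CD64 minus CD32 was -1.44 on the log2 scale at 2 h (adjusted p = 0.00477, limma) and -1.91 at 6 h (adjusted p = 0.000854, limma), with all 4 CD64 arrays under all 4 CD32 arrays.

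The 9 bacterial and phage control probe sets, which entered none of the tests, had a mean log2 signal of 10.89 in control. They were brighter in CD32 2 h (11.47), CD32 6 h (12.61) and CD64 2 h (11.19), and dimmer in CD64 6 h (9.61). Their part in the results was not tested.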

How the results depend on the processing

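No paired analysis was possible because only the control arrays carry a number in the labels. For single genes of the 7, 63 log2 changes under 1314 other fits kept direction and side of the threshold in 1163, lost the call in 72 and gained it in 15. In 64 the sign of the rounded change differed from the main fit, a change to or from 0 included, with no call in either fit. The sign differed with a call in either fit in 0. Many of these fits could not change the direction. Leaving out an array of a group outside the comparison alters the spread but not the log2 change. The same holds without the filter or the variance trend, and for the mean over probe sets, as each gene had 1 probe set. The counts therefore overstate how far the direction was put to the test. The number of the 7 called was 4 in CD32 2 h against control and became 2 after quantile normalization, and 1 after median scaling, without the variance trend or with only the groups compared. With only the groups compared it was 1 of 3 in CD32 6 h, 0 of 3 in CD64 2 h and 1 of 2 in CD64 6 h, where median scaling and no variance trend also gave 1. CD64 against CD32 at 2 h gave 2 after quantile and cyclic loess normalization, with GADD45B added, and 0 with only the groups compared. CD32 6 h against 2 h gave 0 with only the groups compared. CD64 6 h against 2 h gave 0 after quantile, cyclic loess and median scaling, with a floor at percentile 10 and with only the groups compared. With each array left out the counts ran from 1 to 3 in CD32 2 h, 2 to 4 in CD32 6 h, 2 to 3 in CD64 2 h and 2 to 3 in CD64 6 h. Between the receptors they ran from 0 to 1 at 2 h and stayed at 1 at 6 h, and between times from 0 to 1 after each receptor. For the interaction they stayed at 0. A fit on only the groups compared has fewer arrays to estimate the spread, and for the other settings the cause was not tested. The median change of all probe sets in CD64 2 h was -0.13 as deposited and 0.07 after median scaling, and for the interaction it was 0.16 and -0.12. For RPL11, a p53 regulator, the interaction of -0.91 became 0.0 after quantile normalization, and the cause was not tested. A fit with each array left out assumes that the lone array of its group varies like the other groups. MDM2 and the controls of CDKN1A lie near or under the floor, so the signal limits what can be said of them.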
